A study of Mus musculus with 6 samples.

Results

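The ATF4 and amino-acid stress response genes examined here are *Atf4*, *Ddit3*, *Asns*, *Trib3*, *Chac1*, *Sesn2*, *Psat1*, *Phgdh*, *Slc7a5* and *Slc7a11*. They were chosen by name, as 10 of the 44556 gene symbols in the count tables, and all 10 had enough counts to be among the 15600 genes tested. RNA-seq libraries came from the parietal bone of newborn C57BL/6 mice, with 3 libraries from OsxCre mice and 3 from OsxCre;Stat3fl/fl littermates. Both genotypes carry the Cre transgene, which is driven by *Osx* (*Sp7*) and is active mainly in osteoblast precursors, so that *Stat3* is meant to be deleted only in those cells and their descendants. The ages were given no more closely than newborn.

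ATF4 is a basic leucine zipper transcription factor and the main effector of the integrated stress response. When amino acids run short, unfolded proteins collect in the endoplasmic reticulum, haem is lacking or double-stranded RNA appears, a kinase phosphorylates the translation factor eIF2α. General translation then falls while the *Atf4* mRNA is translated more, so the level of the mRNA is only part of ATF4 activity. ATF4 pairs with C/EBP and other proteins and turns on genes that make, import and recycle amino acids. In osteoblasts, which secrete large amounts of collagen, ATF4 is needed for amino-acid import, for collagen synthesis and for transcription of osteocalcin (*Bglap*).

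The libraries held between 8193651 and 12080044 counts, and each library labelled OsxCre;Stat3fl/fl was smaller than each OsxCre library. *Stat3* had 150, 135 and 141 CPM (counts divided by the TMM-scaled size of the library, in edgeR's unit) in OsxCre libraries 1, 2 and 3 and 153, 155 and 155 CPM in libraries labelled OsxCre;Stat3fl/fl. The deletion was thus not visible in the count for the whole gene, which cannot tell the deleted exons from the rest, and the genotype is taken from the label. *Xist* had between 881 and 1059 CPM in all 6 libraries and the Y-linked *Ddx3y*, *Kdm5d*, *Eif2s3y* and *Uty* together had between 0 and 2 counts, whereas the study describes the newborns as male. *Col1a1*, with 9902 to 15152 CPM per library, made up most of the CPM of the osteoblast markers. Osteoblast markers summed to between 14328 and 19312 CPM in OsxCre and between 13312 and 16942 CPM in libraries labelled OsxCre;Stat3fl/fl. Skeletal muscle markers summed to more, with 29733 to 31941 CPM and 35038 to 52096 CPM. No marker of these lists was at 0 in all libraries. Erythroid markers summed to 2233 to 3782 CPM in OsxCre and 1177 to 2084 CPM in libraries labelled OsxCre;Stat3fl/fl, with 1 of 8 at 0 in all libraries, and neutrophil markers to 286 to 490 and 124 to 201 CPM. Neuron markers varied widely within each genotype, with sums of 102, 431 and 93.5 CPM in OsxCre libraries 1, 2 and 3. In libraries 1, 2 and 3 labelled OsxCre;Stat3fl/fl they summed to 354, 36.2 and 236 CPM. In such bulk tissue, fewer cells of a type and less RNA per cell cannot be told apart, and the part of these other cells in the results below was not tested.

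None of the 10 genes changed between genotypes at an adjusted p under 0.05 (edgeR's quasi-likelihood test with Benjamini-Hochberg adjustment), as 1.26% of all genes tested did, and DESeq2 and limma-voom also called 0 of the 10. At an unadjusted p under 0.05, *Ddit3*, *Chac1* and *Psat1* were lower in libraries labelled OsxCre;Stat3fl/fl, or 3 of 10 where 8.34% of all genes were lower, and 0 of 10 were higher where 8.03% were. The values of both genotypes did not overlap for 4 genes. Of these, *Ddit3*, *Chac1* and *Psat1* were lower, where 12.2% of all genes were, and *Asns* was higher, where 10.8% were. The median log2 fold change of the 10 genes was -0.20, beside 0.00 (-0.0037) for all genes tested. It was -0.06 without OsxCre library 3 and -0.08 without library 2 labelled OsxCre;Stat3fl/fl, nearer to that of all genes.

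**Figure D1:**
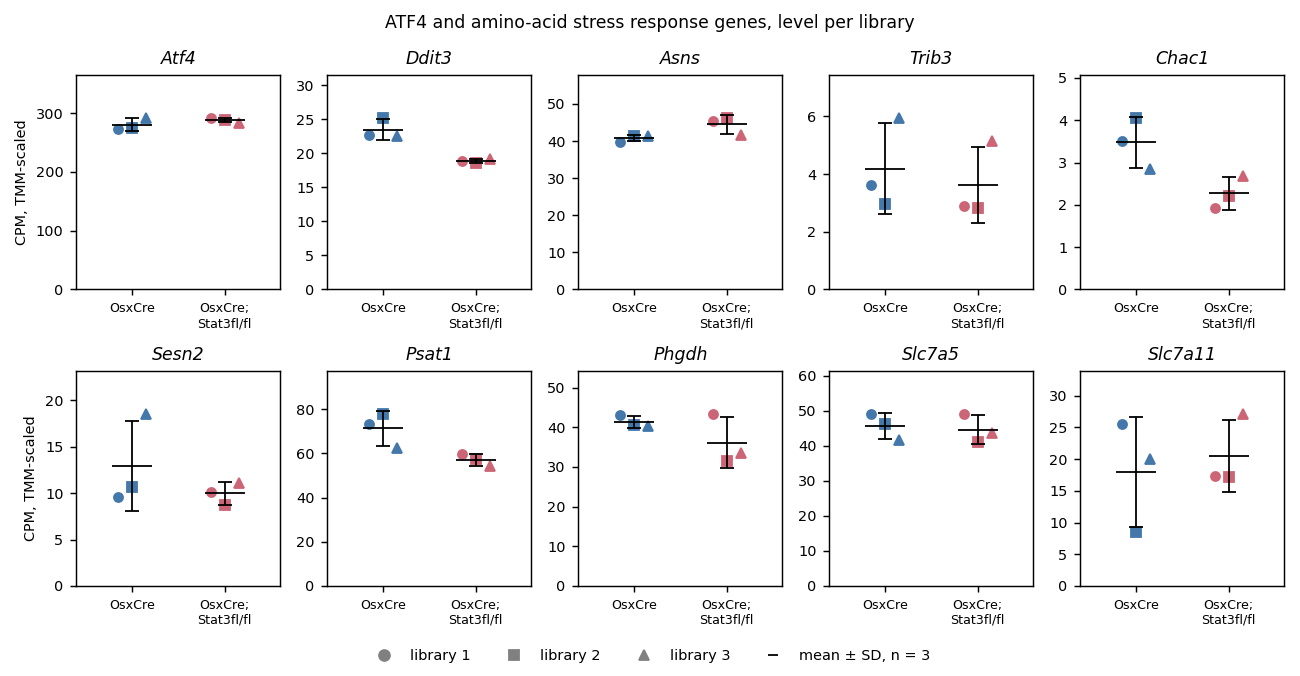
Level of each of the 10 genes in each library, in TMM-scaled CPM on axes that start at 0, with the mean and SD of 3 libraries. *Ddit3*, *Chac1* and *Psat1* lie lower in every library labelled OsxCre;Stat3fl/fl, *Asns* lies higher in all of them, and *Sesn2* and *Trib3* have their highest value in OsxCre library 3.

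Per length, *Atf4* was far above the others, with 162 CPM per kilobase of exon on average in OsxCre (range 158 to 170 over 3 libraries). *Psat1* (14.7 to 18.3), *Phgdh* (16.2 to 17.3), *Asns* (14.5 to 15.1), *Ddit3* (13.2 to 14.8) and *Slc7a5* (11.9 to 14) followed in that order on the same scale. Each of these overlapped with its neighbour except *Asns*, which lay below *Phgdh* in every OsxCre library. *Sesn2* (2.77 to 5.34), *Chac1* (1.74 to 2.48), *Trib3* (1.4 to 2.8) and *Slc7a11* (0.758 to 2.27) were lowest in CPM per kilobase, where *Sesn2* lay above *Chac1* and *Slc7a11* in every OsxCre library and the other pairs overlapped. The lengths are of all annotated exons in GENCODE on NCBIM37, so a gene with a long, little used exon is placed too low.

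ATF4 and its C/EBP partners bind a composite sequence, the C/EBP-ATF response element, for which the letters TGATGNAA were searched on both strands. RefSeq promoter windows on GRCm38.p6, from 250 bases before to 50 after an annotated start, were matched by symbol for 9 of the 10 genes, with 2 starts for *Psat1*. The element was present in 4 of these 9 genes, *Asns*, *Trib3*, *Chac1* and *Slc7a11*, and in 3.97% of 32851 promoter windows of all genes. The stretches that hold it are shown because they mark which of the 10 genes carry the sequence beside their start, with the matching letters in capitals and the strand of the gene.
*Asns*, chr6:7693214-7693243, minus strand: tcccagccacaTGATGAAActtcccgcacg
*Trib3*, chr2:152344028-152344057, minus strand: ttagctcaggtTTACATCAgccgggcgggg
*Chac1*, chr2:119351038-119351067, plus strand: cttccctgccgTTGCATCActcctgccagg
*Slc7a11*, chr3:50443645-50443687, minus strand: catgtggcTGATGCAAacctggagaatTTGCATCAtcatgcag

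The matches lay at bases -23 to -16 of *Asns*, 15 to 22 of *Trib3* and -193 to -186 of *Chac1*, counted from the start. *Slc7a11* had a pair in opposite orientation, at -66 to -59 and -47 to -40 of a start that lies inside the annotated gene. These 4 genes did not share a direction, with log2 fold changes of 0.12 for *Asns*, -0.21 for *Trib3*, -0.61 for *Chac1* and 0.19 for *Slc7a11*. No match of these letters was found in the windows of *Atf4*, *Ddit3*, *Sesn2*, *Psat1* and *Phgdh*, which says nothing of elements farther away. Of the other motifs searched on both strands, none of whose matches in these genes overlapped a match of another, the letters ATTGG were in 7 of the 9 genes and 37.4% of all windows. A STAT element, TTCNNNGAA, was in *Slc7a11* alone, at -183 to -175, and in 8.3% of all windows. The cyclic AMP response element TGACGTCA was in 0 of the 9 and 1.79% of all windows.

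**Figure D2:**
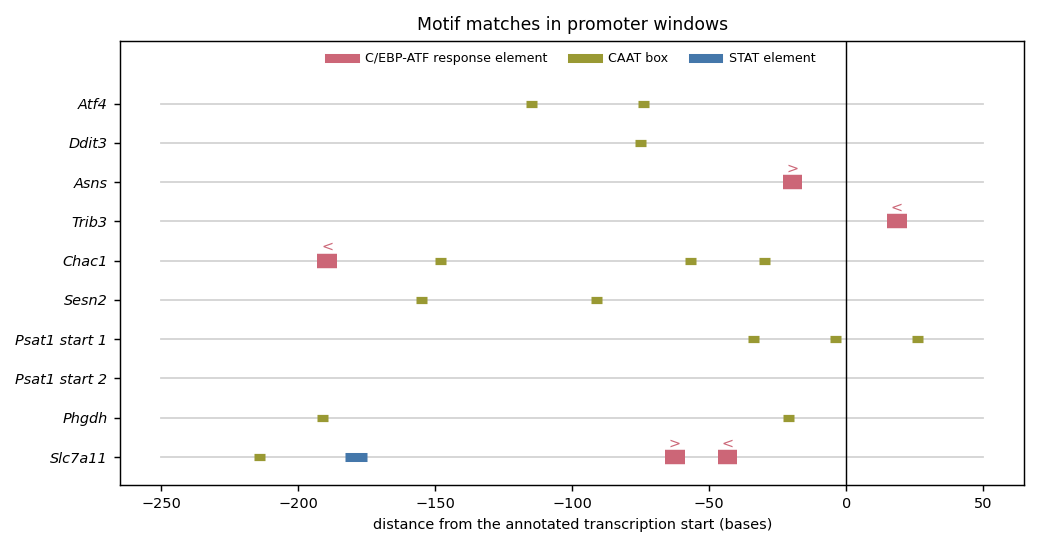
Motif matches in the promoter windows, by distance in bases from the annotated start, with an arrow for the orientation of each C/EBP-ATF response element. Matches of that element stand in *Asns*, *Trib3*, *Chac1* and, as a pair, in *Slc7a11*, and the key's box motif stands for the letters ATTGG.

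*Atf4*, on chromosome 15 from 80255184 to 80257545 of GRCm38.p6, had 273, 275 and 292 CPM in OsxCre libraries 1, 2 and 3 and 292, 289 and 284 CPM in libraries labelled OsxCre;Stat3fl/fl. The ranges overlapped and the means, 280 ± 10.8 and 288 ± 4.21 CPM (SD, n = 3), differed by less than the SD of the OsxCre libraries. The log2 fold change was 0.04 (standard error, SE, 0.07, edgeR adjusted p = 0.831), and its 95% interval allowed a fold change between 0.918 and 1.15. Translation of ATF4 was not measured.

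*Ddit3* encodes CHOP, a transcription factor that ATF4 induces and that takes part in cell death when stress of the endoplasmic reticulum lasts, and lies on chromosome 10 (127290793 to 127296291). It had 22.6, 25.3 and 22.6 CPM in OsxCre and 18.9, 18.6 and 19.2 CPM in libraries labelled OsxCre;Stat3fl/fl. All 3 of the latter were lower than all 3 of the former and lay close together, with means of 23.5 ± 1.54 and 18.9 ± 0.275 CPM (SD, n = 3 each). The log2 fold change was -0.31 (SE 0.10, edgeR adjusted p = 0.179). A two-sided exact permutation test on the CPM returned p = 0.1, the smallest that 3 libraries against 3 allow. The annotated gene overlaps *Mbd6* by 77 bases and *Mars1* (*Mars* in the counts) by 71 bases, and how reads there were counted is not known here.

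*Trib3* encodes a pseudokinase that ATF4 and CHOP induce and that feeds back on ATF4, from chromosome 2 (152337425 to 152344060). Its counts were low, with 38, 30 and 71 in OsxCre and 24, 23 and 44 in libraries labelled OsxCre;Stat3fl/fl, or 3.62, 2.97 and 5.96 CPM and 2.88, 2.82 and 5.15 CPM. Library 3 was the highest in both genotypes and the ranges overlapped. The log2 fold change of -0.21 (SE 0.36, edgeR adjusted p = 0.824) became 0.14 without OsxCre library 3.

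*Chac1*, whose product degrades glutathione, is a known ATF4 target on chromosome 2 (119351242 to 119354326). It had 37, 41 and 34 counts in OsxCre and 16, 18 and 23 in libraries labelled OsxCre;Stat3fl/fl, which is 3.52, 4.06 and 2.85 CPM against 1.92, 2.21 and 2.69 CPM. The genotypes did not overlap, but OsxCre library 3 and library 3 labelled OsxCre;Stat3fl/fl were only 2.85 and 2.69 CPM. Of the 10 genes it had the largest fitted difference, a log2 fold change of -0.61 (SE 0.26, edgeR adjusted p = 0.298). The 95% interval of the fold change ran from 0.434 to 0.993, and at these counts it is wide.

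*Sesn2* encodes sestrin 2, a leucine sensor that restrains mTORC1, on chromosome 4 (132492804 to 132510456). It had 9.61, 10.7 and 18.5 CPM in OsxCre and 10.1, 8.70 and 11.1 CPM in libraries labelled OsxCre;Stat3fl/fl. OsxCre library 3 alone stood above the other libraries. The log2 fold change was -0.38 (SE 0.26, edgeR adjusted p = 0.524), and -0.03 without OsxCre library 3.

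OsxCre library 3 was also the highest for the secreted stress hormones *Gdf15* and *Fgf21*, both induced by ATF4 and looked at after their values were seen. *Gdf15* had 9, 6 and 96 counts in OsxCre and 8, 6 and 3 in libraries labelled OsxCre;Stat3fl/fl. *Fgf21* had 3, 0 and 21 counts in OsxCre and 1 in each library labelled OsxCre;Stat3fl/fl. Neither had enough counts to be tested. The same library had the lowest CPM of the OsxCre libraries for *Chac1*, *Psat1* and *Phgdh*. It also had the most counts of all 6 libraries. Its sums of neutrophil, erythroid and B-lymphoid markers, 490, 3782 and 19.3 CPM, were the highest as well.

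*Asns* encodes asparagine synthetase, the textbook target of ATF4 in amino-acid shortage, on chromosome 6 (7675165 to 7693209). It had 39.8, 41.3 and 41.3 CPM in OsxCre and 45.5, 46.3 and 41.6 CPM in libraries labelled OsxCre;Stat3fl/fl. All 3 of the latter were higher, the closest by less than 1 CPM. The log2 fold change was 0.12 (SE 0.08, edgeR adjusted p = 0.477).

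*Phgdh* and *Psat1* encode the first and second enzymes of serine synthesis from a glycolytic intermediate. *Psat1* lies on chromosome 19 (15905123 to 15925059) and *Phgdh* on chromosome 3 (98313171 to 98339969). *Psat1* had 73.6, 77.9 and 62.6 CPM in OsxCre and 59.7, 57.6 and 54.3 CPM in libraries labelled OsxCre;Stat3fl/fl, without overlap. Its log2 fold change was -0.32 (SE 0.10, edgeR adjusted p = 0.167), and the 95% interval of the fold change ran from 0.685 to 0.938. When each library was omitted in turn, the unadjusted p of *Psat1* stayed under 0.05 in 6 of 6 cases. For *Ddit3* it did so in 5 of 6, the exception being OsxCre library 2, and for *Chac1* in 2 of 6, without library 3 of either genotype. *Phgdh* had 43, 40.6 and 40.2 CPM in OsxCre and 43.4, 31.4 and 33.6 CPM in libraries labelled OsxCre;Stat3fl/fl. Library 1 of the latter was the highest of all 6, while libraries 2 and 3 were the lowest. Its log2 fold change was -0.19 (SE 0.13, edgeR adjusted p = 0.499), with -0.35 without library 1 labelled OsxCre;Stat3fl/fl and -0.10 without library 2 of that genotype.

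*Slc7a5* encodes LAT1, which imports leucine and other large neutral amino acids, and *Slc7a11* encodes xCT, which imports cystine in exchange for glutamate. Both work as a pair with the heavy chain encoded by *Slc3a2*. *Slc7a5* lies on chromosome 8 (121881146 to 121907686) and *Slc7a11* on chromosome 3 (50364936 to 50499087). *Slc7a5* had 49.1, 46.1 and 41.8 CPM in OsxCre and 49.1, 41.1 and 43.6 CPM in libraries labelled OsxCre;Stat3fl/fl, with overlap (log2 fold change -0.03, 95% interval of the fold change 0.833 to 1.15). *Slc3a2* had 78.3, 80.3 and 88.3 CPM against 85, 80.9 and 84.7 CPM, also with overlap. *Slc7a11* varied most within a genotype, with 25.5, 8.53 and 20 CPM in OsxCre and 17.3, 17.2 and 27.1 CPM in libraries labelled OsxCre;Stat3fl/fl. Its log2 fold change of 0.19 (SE 0.37, edgeR adjusted p = 0.857) had a 95% interval of the fold change from 0.631 to 2.06, so changes of either sign within these bounds were not excluded.

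**Figure D3:**
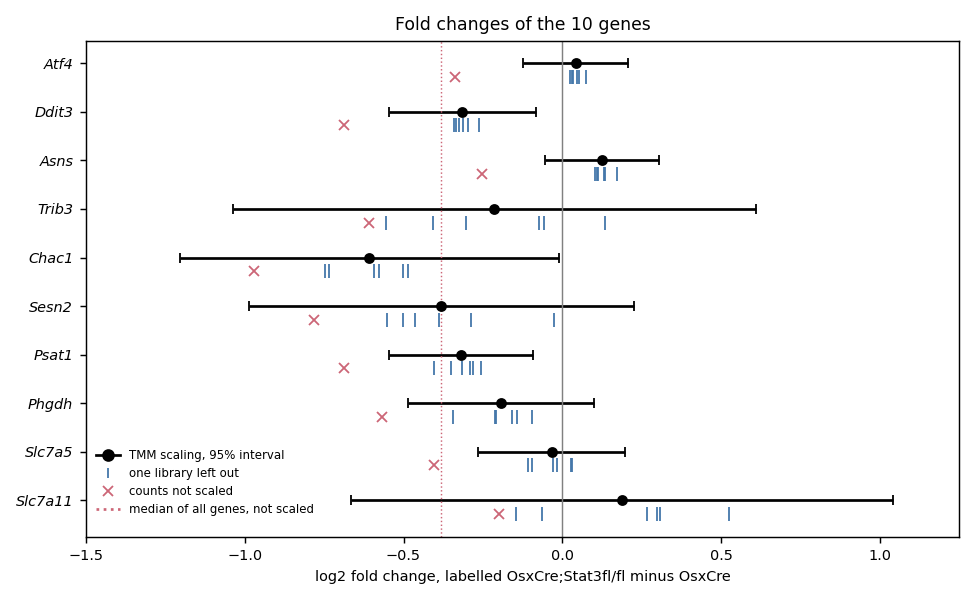
Log2 fold change of each gene between libraries labelled OsxCre;Stat3fl/fl and OsxCre, with its 95% interval (points and bars), the values with each library omitted in turn (ticks) and the value from counts not scaled for library size (crosses). Without scaling, the median of all genes moved from 0.00 to -0.38 (dotted line) and all 10 genes had negative values.

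Around these 10 genes, 10 lists of related genes held 118 genes, of which 114 were tested. At an adjusted p under 0.05, 3 were higher (0.776% of all genes were) and 3 lower (0.481% of all genes). Their median log2 fold change was 0.01.

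Among 12 genes around eIF2α and its phosphorylation, none changed at an adjusted p under 0.05. The unadjusted p was under 0.05 for 1 higher and 1 lower, near the 8.03% and 8.34% of all genes. None of the eIF2α kinase genes, *Eif2ak1*, *Eif2ak2*, *Eif2ak3* and *Eif2ak4*, was among these. *Eif2ak2* (PKR), the kinase that senses double-stranded RNA, had 28.4, 24.1 and 30 CPM in OsxCre and 33, 32.7 and 31.2 CPM in libraries labelled OsxCre;Stat3fl/fl (log2 fold change 0.23, edgeR adjusted p = 0.326). *Ppp1r15a* (GADD34), the ATF4-induced subunit that brings a phosphatase to eIF2α, had 31.3, 27 and 37.3 CPM in OsxCre and 43.6, 50.5 and 50.3 CPM in libraries labelled OsxCre;Stat3fl/fl. The genotypes did not overlap, at a log2 fold change of 0.59 (SE 0.13, edgeR adjusted p = 0.0825), a direction opposite to that of *Ddit3* and *Chac1*. *Eif2b5*, a subunit of the exchange factor that phosphorylated eIF2α inhibits, had a log2 fold change of -0.19 (edgeR adjusted p = 0.275).

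Of 11 tested partners and downstream regulators of ATF4, *Sqstm1* rose. It encodes p62, an autophagy receptor, and had 257, 243 and 234 CPM in OsxCre and 315, 340 and 352 CPM in libraries labelled OsxCre;Stat3fl/fl (log2 fold change 0.46, SE 0.08, edgeR adjusted p = 0.0453). *Ddit4* (REDD1), an inhibitor of mTORC1, had 34.5, 31.3 and 60.9 CPM against 71.8, 87 and 68.6 CPM (edgeR adjusted p = 0.146), with OsxCre library 3 again highest of its genotype. *Cebpg*, a partner of ATF4, had a log2 fold change of -0.29 (edgeR adjusted p = 0.236). *Sesn1*, a relative of *Sesn2*, had 109, 98.4 and 106 CPM against 116, 155 and 176 CPM, without overlap and in the opposite direction to *Sesn2* (log2 fold change 0.51, edgeR adjusted p = 0.139), and the difference between the relatives was not tested. The pseudokinase genes *Trib1* and *Trib2*, relatives of *Trib3*, had log2 fold changes of -0.25 and -0.13 with overlapping values (edgeR adjusted p = 0.525 and 0.625).

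The enzymes beside *Psat1*, *Phgdh* and *Asns* had no gene at an adjusted p under 0.05, in 9 tested for serine, glycine and one-carbon metabolism and 10 for other amino acids. In the latter list, 4 genes were lower at an unadjusted p under 0.05 (8.34% of all genes were), and 6 of 10 were lower without overlap (12.2% of all genes). Among these were *Aldh18a1* and *Pycr1*, which act in proline synthesis from glutamate, and *Bcat1*. *Cth* and *Cbs*, which make cysteine from homocysteine, were higher at an unadjusted p under 0.05 (8.03% of all genes were), at no more than 6.48 CPM. They were also higher without overlap (10.8% of all genes), with log2 fold changes of 1.43 and 1.23 (edgeR adjusted p = 0.153 and 0.151). *Pycr1* had 50.2, 42.6 and 53 CPM in OsxCre and 35.2, 30.3 and 32.5 CPM in libraries labelled OsxCre;Stat3fl/fl, a log2 fold change of -0.57 (SE 0.11, edgeR adjusted p = 0.055). *Aldh18a1* had 60.2, 64.7 and 49.1 CPM against 42.8, 40.8 and 29.9 CPM, a log2 fold change of -0.62 (edgeR adjusted p = 0.115). *Bcat1*, which begins the breakdown of branched-chain amino acids, had a log2 fold change of -0.47 (edgeR adjusted p = 0.139), and the one-carbon enzyme *Aldh1l2* of -0.54 (edgeR adjusted p = 0.247). *Mthfd2*, another mitochondrial one-carbon enzyme, had 19.3, 15.5 and 16.8 CPM against 14.8, 12.9 and 14.7 CPM (edgeR adjusted p = 0.342). *Gldc*, of the glycine cleavage system, had a log2 fold change of 0.92 at no more than 3.48 CPM (edgeR adjusted p = 0.391).

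Of 13 amino-acid transporters beside *Slc7a5* and *Slc7a11*, *Slc7a8* rose. It encodes LAT2, which like LAT1 pairs with the *Slc3a2* product to carry neutral amino acids, and had 23, 22.3 and 18.6 CPM in OsxCre and 35.5, 31.7 and 33.9 CPM in libraries labelled OsxCre;Stat3fl/fl. Its log2 fold change was 0.66 (SE 0.11, edgeR adjusted p = 0.0421). *Slc43a1*, a carrier of large neutral amino acids, had 14.8, 13.2 and 14.7 CPM against 19, 19.2 and 28.7 CPM (edgeR adjusted p = 0.137). *Slc38a2* (SNAT2), a glutamine carrier and ATF4 target, had 350, 281 and 309 CPM against 321, 424 and 383 CPM, with overlap (edgeR adjusted p = 0.349). Skeletal muscle markers were higher in the same libraries, as given above, with 8 of 10 higher at an unadjusted p under 0.05 (8.03% of all genes were). *Myh4*, a fast myosin heavy chain of the same list, fell from 420, 411 and 478 CPM to 30.6, 39.1 and 37.3 CPM (log2 fold change -3.61, edgeR adjusted p = 3.87e-05). *Myh3*, another myosin heavy chain of the list, rose from 345, 298 and 382 CPM to 1000, 1555 and 810 CPM (log2 fold change 1.71, edgeR adjusted p = 0.0204).

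The 20 cytosolic aminoacyl-tRNA synthetases, many of them ATF4 targets, had a median log2 fold change of -0.02, and none passed an adjusted p of 0.05. At an unadjusted p under 0.05, *Yars* and *Aars* were lower and *Dars* and *Qars* higher. These 2 of 20 in each direction are near the 8.34% and 8.03% of all genes. *Yars* had 74.5, 81 and 77.1 CPM in OsxCre and 65.9, 60.8 and 55 CPM in libraries labelled OsxCre;Stat3fl/fl (log2 fold change -0.36, edgeR adjusted p = 0.105).

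The ATF6 and XBP1 branch of the unfolded protein response, which runs beside the ATF4 branch and raises chaperones of the endoplasmic reticulum, held the called genes that fell. Of its 14 tested genes, 3 were lower at an adjusted p under 0.05 (0.481% of all genes were), 8 at an unadjusted p under 0.05 (8.34% of all genes) and 8 without overlap (12.2% of all genes), and 0 were higher by any of these. The median log2 fold change of this list was -0.33. *Calr*, the chaperone calreticulin, fell from 715, 676 and 572 CPM to 395, 377 and 340 CPM, a log2 fold change of -0.82 (SE 0.11, edgeR adjusted p = 0.02). *Creld2* fell from 43.3, 43.1 and 35.8 CPM to 26.1, 25.7 and 24.9 CPM (log2 fold change -0.67, edgeR adjusted p = 0.0285). *Sdf2l1* fell from 11.1, 11.3 and 8.90 CPM to 5.52, 5.03 and 5.26 CPM (log2 fold change -0.98, edgeR adjusted p = 0.0445). The other 5 at an unadjusted p under 0.05 were *Hspa5* (BiP), *Hsp90b1*, *Pdia4*, *Hyou1* and *Edem1*, with log2 fold changes from -0.62 for *Hyou1* to -0.22 for *Edem1*. The rest of the list overlapped between genotypes. *Atf6*, *Herpud1* and *Ern1* had positive log2 fold changes (0.17, 0.12 and 0.10), and those of *Sel1l*, *Xbp1* and *Dnajb9* were -0.05, -0.06 and -0.09. *Ddit3*, which this branch can also induce, had a log2 fold change of -0.31. The part of this branch in the *Ddit3* difference was not tested. Of 9 osteoblast markers in the same libraries, *Ibsp* was lower at an adjusted p under 0.05 (0.481% of all genes were), and 7 had negative log2 fold changes, as did 7913 of the 15600 genes tested. *Ibsp* and *Alpl* were lower at an unadjusted p under 0.05 (8.34% of all genes were). *Alpl* had 278, 323 and 248 CPM in OsxCre and 199, 189 and 194 CPM in libraries labelled OsxCre;Stat3fl/fl (edgeR adjusted p = 0.0578).

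Among 11 genes of the NRF2 and glutathione pathway, which also controls *Slc7a11*, *Hmox1* alone passed an adjusted p of 0.05. It encodes haem oxygenase 1, and rose from 77.6, 56.9 and 71.2 CPM to 172, 201 and 240 CPM, a log2 fold change of 1.58 (SE 0.15, edgeR adjusted p = 0.00785). The NRF2 targets *Nqo1*, *Gclc*, *Gclm*, *Txnrd1* and *Srxn1* did not pass an unadjusted p of 0.05. *Nqo1* had a log2 fold change of 0.27 (edgeR adjusted p = 0.435), and *Keap1*, the inhibitor of NRF2, of -0.15 (edgeR adjusted p = 0.325). *Hmox1* is also made by macrophages. Of 8 macrophage and osteoclast markers, *C1qb* was higher at an adjusted p under 0.05 (0.776% of all genes were). *C1qb* and *Cd68* were higher at an unadjusted p under 0.05 (8.03% of all genes were). The log2 fold changes of 5 of the 8 were positive and those of 3 negative. Their sum ranged from 2482 to 2829 CPM in OsxCre and from 2267 to 2962 CPM in libraries labelled OsxCre;Stat3fl/fl. It came mostly from the osteoclast genes *Ctsk*, *Mmp9* and *Acp5*, with means of 989, 805 and 594 CPM in OsxCre, and so says little of macrophages. The part of macrophages in the *Hmox1* difference was not tested.

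Of 8 tested osteoblast genes tied to ATF4, none passed an adjusted p of 0.05. *Rps6ka3* encodes RSK2, the kinase that phosphorylates ATF4 in osteoblasts, and its log2 fold change was 0.13 (edgeR adjusted p = 0.424). *Runx2* overlapped between genotypes, at -0.19 on the log2 scale (edgeR adjusted p = 0.427). *Bglap*, the osteocalcin gene that ATF4 activates, had 26.3, 20.4 and 25.2 CPM against 17.9, 25.6 and 37.3 CPM, with overlap, and near-identical copies may share its reads.

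**Figure D4:**
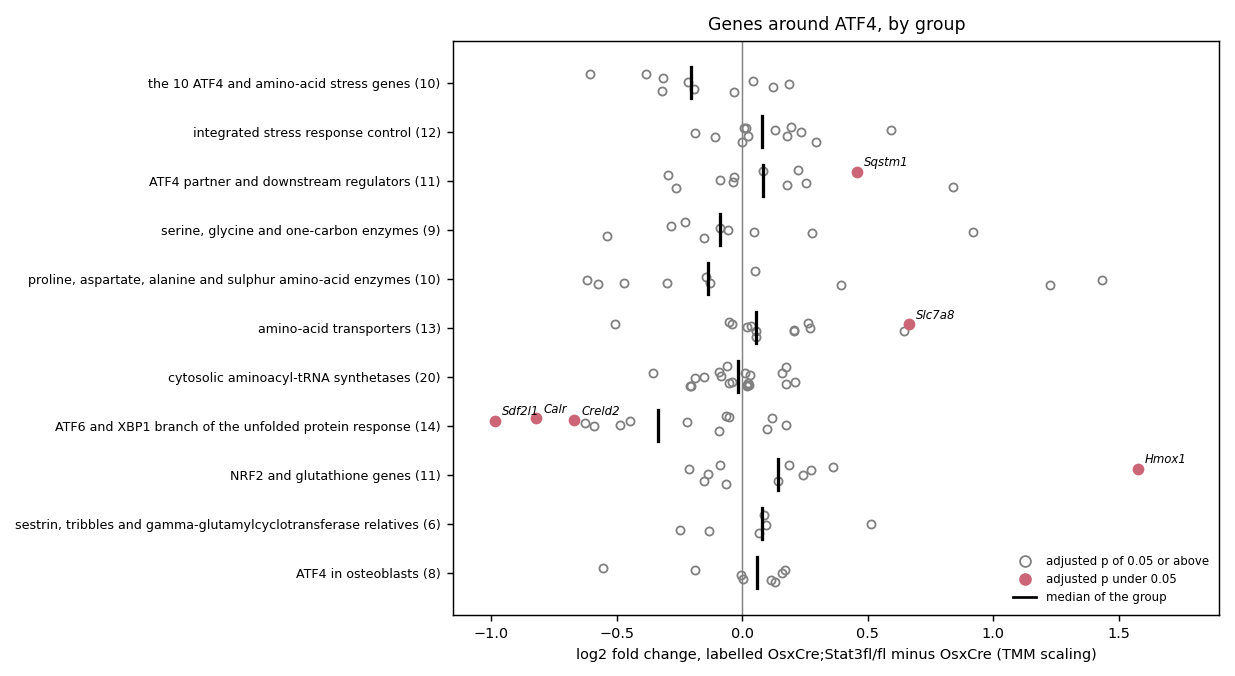
Log2 fold change of each tested gene in the 10 genes and in each list of related genes (number tested in brackets), with the median of each group as a bar and genes at an adjusted p under 0.05 filled. The filled genes are *Sqstm1*, *Slc7a8* and *Hmox1* on the higher side and *Sdf2l1*, *Calr* and *Creld2* on the lower side, and none is among the 10 genes.

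With one library omitted at a time, *Hmox1* still passed an adjusted p of 0.05 in 5 of 6 cases (0.052 without library 3 labelled OsxCre;Stat3fl/fl), *Calr* and *Creld2* in 1 (without OsxCre library 3), and *Sqstm1*, *Slc7a8* and *Sdf2l1* in 0, while these 6 genes kept their direction and an unadjusted p under 0.05 in each of the 6 cases. The calls were also lost under other scalings for *Slc7a8* (edgeR adjusted p = 0.0702 with library totals and 0.0527 with upper quartiles) and *Sqstm1* (0.0595 and 0.0533). That of *Sdf2l1* was lost with upper quartiles (edgeR adjusted p = 0.0524) and by limma-voom (adjusted p = 0.0550).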

How the data were processed

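Bulk RNA-seq of parietal bone was analysed in 3 OsxCre and 3 OsxCre;Stat3fl/fl libraries, grouped by their labels. The authors deposited raw counts per gene symbol for each library. Their methods name TopHat, Cufflinks and mm9, while the submitters' processing notes name HISAT2 and GRCm38. The counting program is not given in the sources used here. Low counts were removed by filterByExpr (at least 10 counts, 15 in total), the rest scaled by TMM and tested by genotype with edgeR 4.0.16 (R 4.3.3, limma 3.58.1, DESeq2 1.42.0). This quasi-likelihood test was two-sided, with Benjamini-Hochberg adjustment over 15600 genes. A standard error is the log2 fold change divided by the square root of F, and 95% intervals use the t distribution of that test. The study's methods give 3 mice per genotype. Pairs of one genotype differed beyond sampling noise (chi-square per degree of freedom from 7.51 to 15.6).

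The 10 genes and the lists were chosen with earlier results of these data known. Named are the 10 genes, *Stat3*, *Slc3a2*, *Bglap*, each listed gene at an adjusted p under 0.05, and the 3 genes of smallest p in each list of related genes. Other genes named were chosen after their values were seen. A few listed genes are not reported here. In simulated counts, the test recovered 64.8% of 199 genes changed 2-fold, with 9 other calls among 15396 genes. Smaller changes, such as those fitted for the 10 genes (log2 fold changes from -0.61 to 0.19), were not simulated. Positions and promoters came from RefSeq (GRCm38.p6), and 71.6% of the gene symbols matched it. Replicate numbers of the labels were not used to pair the libraries in the main test (see the closing section for other scalings, filters, tests, the replicate block and left-out libraries).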

Additional observations from a re-analysis of the deposited data

How the results depend on the processing

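None of the 10 genes passed an adjusted p of 0.05 under any scaled alternative. Without scaling for library size, which moved the median of all genes to -0.38, 5 of the 10 genes were lower at an adjusted p under 0.05 and 8 at an unadjusted p, 121 genes were higher and 5451 lower in all, and the median of the 10 genes was -0.59. In 136 of 150 alternative values of the 10 genes, the direction and the side of the threshold stayed. Directions turned for *Atf4* with library totals (-0.0033) and without scaling (-0.34), and without scaling for *Asns* (-0.25) and *Slc7a11* (-0.20). Leaving out one library gave -0.56 to 0.14 for *Trib3*, turned without OsxCre library 3. It gave -0.11 to 0.029 for *Slc7a5*, turned without OsxCre library 1 or library 2 labelled OsxCre;Stat3fl/fl, and -0.15 to 0.52 for *Slc7a11*, turned without OsxCre library 2 or library 3 labelled OsxCre;Stat3fl/fl. The cause of these turns was not tested.

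Of the 15600 genes, 121 were higher and 75 lower at an adjusted p under 0.05. The numbers were 250 and 178 without the filter for low counts, 300 and 236 with DESeq2's Wald test, and 114 were lower with library totals. Leaving out one library gave 7 to 67 higher and 5 to 36 lower, with fewer samples in each fit. Of the 10 genes, those lower at an unadjusted p under 0.05 numbered 1 with DESeq2's Wald test and 1 to 3 with one library left out, and the median of the 10 genes then ranged from -0.23 to -0.060.

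Adding a replicate block left 0 genes higher and 1 lower at an adjusted p under 0.05, and 2 of the 10 genes were lower at an unadjusted p. Same-numbered libraries had correlations of their deviations from -0.518 to -0.085 across genes. With 3 libraries per genotype, such values cannot exclude pairing by litter, and whether same-numbered mice shared a litter is not known here. *Calr*, *Creld2*, *Sdf2l1*, *Sqstm1*, *Slc7a8* and *Hmox1* had adjusted p-values of 0.0852, 0.106, 0.181, 0.2, 0.137 and 0.0597 with the block. Without scaling, those of *Sqstm1* and *Slc7a8* were 0.564 and 0.0780. Depth limited *Trib3* and *Chac1* most, at 16 to 71 counts per library.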
